A study of Homo sapiens with 32 samples.

Results

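Some introns of human protein-coding genes are spliced out of one annotated isoform and kept inside an exon of another. These annotated retained introns were examined for contact with Alyref, Chtop and Nxf1, which act in mRNA export, as mapped by iCLIP in HEK293T FlpIn cells. An intron was a member when its whole span lay inside a single exon of another transcript of the same gene, in the GENCODE release 44 annotation on GRCh37. The rule used the annotation alone and no tag count. It gave 26842 of the 320945 introns of 20163 protein-coding genes (8.36%), in 7942 genes. Of these, 12422 were introns of the main isoform (the transcript marked canonical by the annotation), 3390 lay wholly inside an exon of the main isoform, and 11030 were neither.

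Introns are removed by the spliceosome, which recognises a donor site at the 5′ end of the intron, a branch point, and an acceptor site at its 3′ end preceded by a pyrimidine-rich tract. Transcripts that keep an intron are often held in the nucleus or, when they reach ribosomes, degraded by nonsense-mediated decay, and several genes of RNA-binding proteins are known to limit their own output in this way. Alyref and Chtop are adaptors of TREX, the complex that prepares mRNA for export. Nxf1 is the receptor that carries mRNA through the nuclear pore, and its own gene is known for a retained intron whose RNA is exported.

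The study provided 3 libraries each for cells expressing FLAG-tagged Alyref, Chtop or Nxf1 and for a Control line with the FLAG construct alone, all from HEK293T FlpIn cells, in which a transgene is placed at one defined site by recombination. Tetracycline was given for 48 h to induce the tagged protein, the Nxf1 line receiving 5 ng/mL and the Alyref and Chtop lines 10 ng/mL, with no dose for Control in the sources used here. The tagged copies were made in addition to the endogenous proteins, and a stable line stands for each factor. In iCLIP, ultraviolet light links protein to the RNA it touches, the protein is pulled down by its tag, and the end of the cDNA made from the bound RNA marks the contact. A tag is 1 deduplicated cDNA assigned to 1 crosslinked base. The Alyref libraries held 81307 to 631704 tags, the Chtop libraries 47052 to 538844, the Nxf1 libraries 8134 to 179346 and the Control libraries 7017 to 46628, and the first library of every group was the shallowest. Tags in bases shared by more than 1 gene of a strand were left out (5.97% to 8.32% of a library), which left 2785 members without a usable base.

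The main-isoform members were short, with a median length of 281 nt against 1084 nt for the 59928 other introns of the same genes, and 38.1% against 17.2% were under 200 nt. Their median GC content was 54.8% against 47.5%. Last introns made up 12.4% of them against 6.43% of the others. The letters GTAAG opened 19.5% of members and 24.4% of the others, GTGAG opened 32.1% and 29.9%, and the median share of pyrimidines before the acceptor was 76.5% in both. GC-AG ends were found in 0.974% of members and 0.718% of the others. A transcript of the type retained_intron held 82.0% of the main-isoform members but 24.9% of the members inside a main-isoform exon.

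The donor and acceptor sites below belong to the introns on which the results for single genes turn. Each is given 5′ to 3′ on the transcript strand from the GRCh37 reference, the donor with 3 exon bases in lower case and the first 6 intron bases in capitals, the acceptor with the intron's last AG in capitals and 1 exon base after it.
NXF1 intron 10 donor, chr11:62566048-62567848, minus strand: cagGTCAGT
NXF1 intron 10 acceptor: ttctgtcccgttcttgacAGc
OGT intron 4 donor, chrX:70764486-70767756, plus strand: aagGTAGGT
OGT intron 4 acceptor: tttcattaacccctcctaAGg
CLK1 intron 3 donor, chr2:201724939-201725960, minus strand: gggGTATGA
CLK1 intron 3 acceptor: cgcccacttgacgtttccAGa
DDX39B intron 6 donor, chr6:31500689-31503143, minus strand: gatGTAAAT
DDX39B intron 6 acceptor: acccccttcctcccccccAGc
DDX17 intron 11 donor, chr22:38884121-38888060, minus strand: tagGTTTGT
DDX17 intron 11 acceptor: actcatcattgacgtggaAGa
DDX5 intron 11 donor, chr17:62496892-62498127, minus strand: tagGTTAGT
DDX5 intron 11 acceptor: cacactgcaacaccttacAGa
CHTOP intron 2 donor, chr1:153609130-153610770, plus strand: gcgGTGAGG
CHTOP intron 2 acceptor: cattttgttcgaccttgaAGc
None of these 7 donors reads GTAAG or GTGAG in its first 5 intron bases except CHTOP intron 2, and the paralogs DDX5 and DDX17, which code for closely related RNA helicases, both have a donor that begins GTT. The lengths ranged from 1022 nt for CLK1 to 3940 nt for DDX17, all above the member median.

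Where the crosslinks fell in 4 of the heavily tagged introns is shown by the 21 bases around their most used base, which is in capitals. The base and its count, labelled factor tags below, were taken over all libraries, so Control tags can be among them. All of them are read 5′ to 3′ on the transcript strand.
DDX17 intron 11, chr22:38885627-38885647, 8 factor tags: acagctaattTttttttttta
DDX5 intron 11, chr17:62498016-62498036, 8 factor tags: tttttctaagTtttttttcac
LENG8 intron 15, chr19:54970848-54970868, 6 factor tags: ttggagctagGgagggactgt
ZNF711 intron 3, chrX:84502531-84502551, 5 factor tags: ttaaaagccaTttcttttgca
The bases of DDX17 and DDX5 lie in runs of T, that of ZNF711 in the pyrimidine-rich sequence before the acceptor, and that of LENG8 in purine-rich sequence. None of these bases held more than 8 of the tags of its intron. In all main-isoform members taken as a set, uracil was the crosslinked base of 54.3% ± 1.60 (SD, n = 3) of Alyref tags, 54.4% ± 3.24 of Chtop tags, 53.4% ± 1.19 of Nxf1 tags and 52.3% ± 4.37 of Control tags. In the flanking exons it was uracil for 44.9% ± 0.924, 47.4% ± 3.19, 41.6% ± 4.19 and 37.7% ± 1.69, so members were above their exons in every group, Control included. Other introns of the same genes gave 59.8% ± 2.28 for Alyref and 56.3% ± 4.71 for Chtop.

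Members held a small and similar part of each library. All members together took 2.88% ± 0.136 (SD, n = 3) of Alyref tags, 3.17% ± 0.495 of Chtop tags, 2.49% ± 0.693 of Nxf1 tags and 2.18% ± 0.750 of Control tags. The groups differed in which members carried the tags. Introns of the main isoform took 1.42%, 1.38% and 1.28% of the Alyref libraries and 1.00%, 1.10% and 0.945% of the Chtop libraries, which do not overlap. Nxf1 (0.897%, 1.26% and 0.787%) was below every Alyref library and overlapped Chtop. Control (1.28%, 1.66% and 0.714%) overlapped both. Introns inside a main-isoform exon took 1.22%, 1.26% and 1.12% of the Alyref libraries and 1.35%, 1.96% and 2.27% of the Chtop libraries, so that here every Chtop library was above every Alyref library. The Control libraries held 0.827%, 0.680% and 0.381%, below every Alyref and Chtop library, and overlapped Nxf1, which ranged from 0.679% to 1.66%. With 3 libraries a group, an exact permutation test cannot give a two-sided p under 0.1, and no test was made of these sums.

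**Figure D1:**
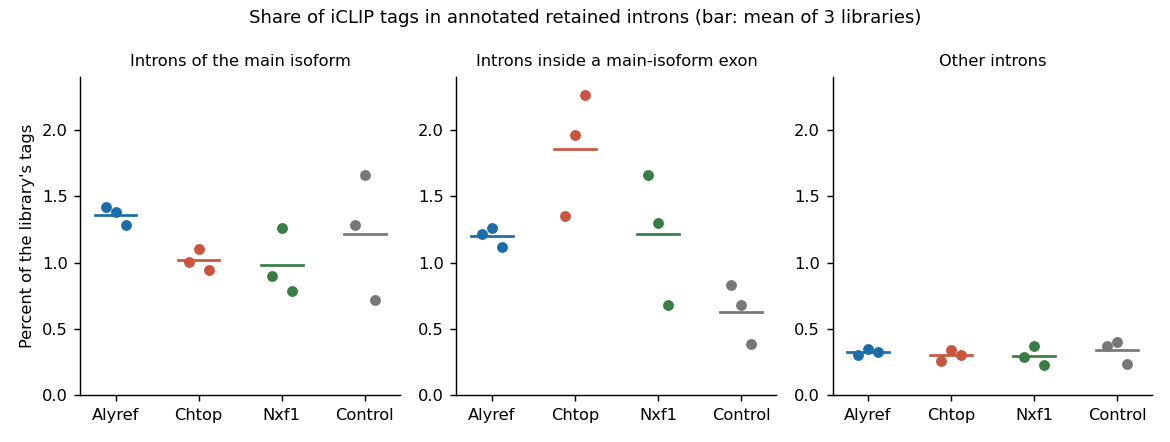
Percent of each library's tags (y axis) in annotated retained introns of the main isoform (left), introns inside a main-isoform exon (middle) and other member introns (right), with a point for each library and a bar for the mean of 3. Alyref libraries sit above Chtop in the left panel (1.28% to 1.42% against 0.945% to 1.10%), and Chtop above Alyref in the middle panel.

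As a share of the member tags alone, main-isoform introns made up 47.2% in Alyref, 32.5% in Chtop, 40.4% in Nxf1 and 55.3% in Control, and introns inside a main-isoform exon 41.6%, 58.0%, 47.6% and 28.9%. In CPM per kb (tags per kilobase, scaled to a library of 1000000 tags), the main-isoform members had a density of 2.15 in Alyref, 1.60 in Chtop, 1.55 in Nxf1 and 1.92 in Control. Main-isoform introns that are not members had 0.273, 0.179, 0.300 and 0.379. Other main-isoform exon sequence had 5.69, 6.99, 4.30 and 2.60. The level in members was between that of other introns and that of exons in all 9 factor libraries and in the first Control library, while in the second and the third Control library members (2.62 and 1.13) were at or above exons (1.95 and 1.12). In bulk cells, more molecules that keep the intron and more contacts per molecule cannot be told apart.

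To set each intron beside exon sequence of the same pre-mRNA, its density was divided by that of the 100 nt of exon on either side. The log2 ratio was -2.45, -2.68 and -2.49 in the Alyref libraries, -2.04, -2.15 and -2.36 in Chtop, -2.32, -2.34 and -1.94 in Nxf1, and -2.24, -0.56 and -0.91 in Control. The means were -2.54 ± 0.13 (17.2% of the flanking exons) in Alyref, -2.18 ± 0.16 (22.0%) in Chtop and -2.20 ± 0.23 (21.8%) in Nxf1, and every Alyref library was below every Chtop library. Control was less even, at -1.24 ± 0.89 (42.4%). The other main-isoform introns of the same genes stood at -5.06 ± 0.27 (3.00%) in Alyref, -5.11 ± 0.45 (2.89%) in Chtop, -3.65 ± 1.07 in Nxf1 and -2.84 ± 1.44 in Control. Set directly against those introns, members were denser on the log2 scale by 2.39 ± 0.31 in the Alyref libraries, 2.61 ± 0.27 in Chtop, 1.79 ± 0.41 in Nxf1 and 1.77 ± 0.42 in Control. The 12 values ranged from 1.29 to 2.91, so members were denser in all 12 libraries, and the FLAG-only background showed the same direction.

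The gap was smaller within classes of like length than over all introns. Against their flanking exons, the mean log2 ratio of members for Alyref was -2.09 under 100 nt, -2.35 from 100 to under 200 nt, -2.34 to under 500 nt, -2.40 to under 1000 nt and -2.48 to under 5000 nt. The corresponding Chtop means were -1.94, -2.04, -1.90, -2.15 and -2.27. The other introns stood lower the longer they were. Their Alyref means ran from -3.34 to -4.63 over the same classes, and their Chtop means from -3.06 to -4.66. Within a length class, members were therefore denser than other introns by 1.20 (log2) under 100 nt and by 1.74 from 1000 to under 5000 nt for Alyref, and by 0.89 and 1.94 for Chtop. At least 1 factor tag was found in 27.7% of members under 100 nt and in 67.6% of those of 1000 to under 5000 nt, which offer more bases.

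**Figure D2:**
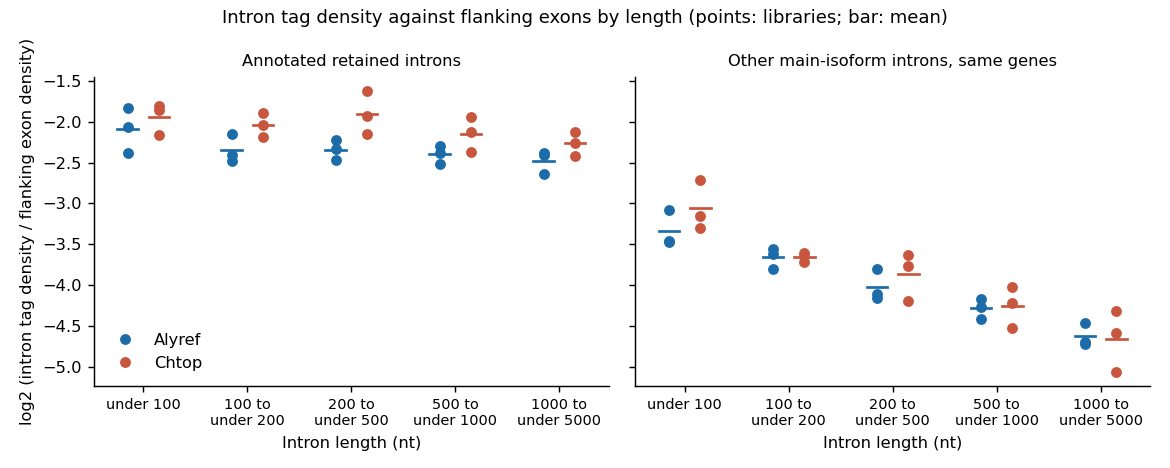
Log2 ratio of intron density to flanking exon density (y axis) by intron length in nt (x axis) for annotated retained introns (left) and other main-isoform introns of the same genes (right), with a point for each Alyref or Chtop library and a bar for the mean of 3. The Alyref means of retained introns lie between -2.09 and -2.48 in these length classes, and those of the other introns run from -3.34 to -4.63.

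By place in the transcript, 920 main-isoform members were first introns, 9921 middle introns, 1538 last introns and 43 the only intron. For Alyref the ratio to the flanking exons was lowest in first introns, at -2.98, -3.02 and -3.08 in the 3 libraries, and highest in last introns, at -1.91, -2.35 and -2.19. For Chtop the order was the opposite, with -1.64, -1.77 and -1.71 in first introns and -2.05, -2.34 and -2.51 in last introns. The groups did not overlap for first introns, and for last introns they did. At first introns, the exon side differed more between the factors than the intron side. The exon sequence beside first introns held 20.3, 19.2 and 16.7 CPM per kb in the Alyref libraries but 7.04, 6.78 and 6.07 in the Chtop libraries, and beside last introns 8.62 ± 0.901 and 7.67 ± 1.67. For Alyref the density inside the introns changed little over the 3 places. It was 2.31 ± 0.306 in first, 2.18 ± 0.0766 in middle and 1.95 ± 0.243 in last introns. For Chtop it was 2.03 ± 0.203, 1.58 ± 0.137 and 1.53 ± 0.144, and every first-intron value was above every middle and last value.

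**Figure D3:**
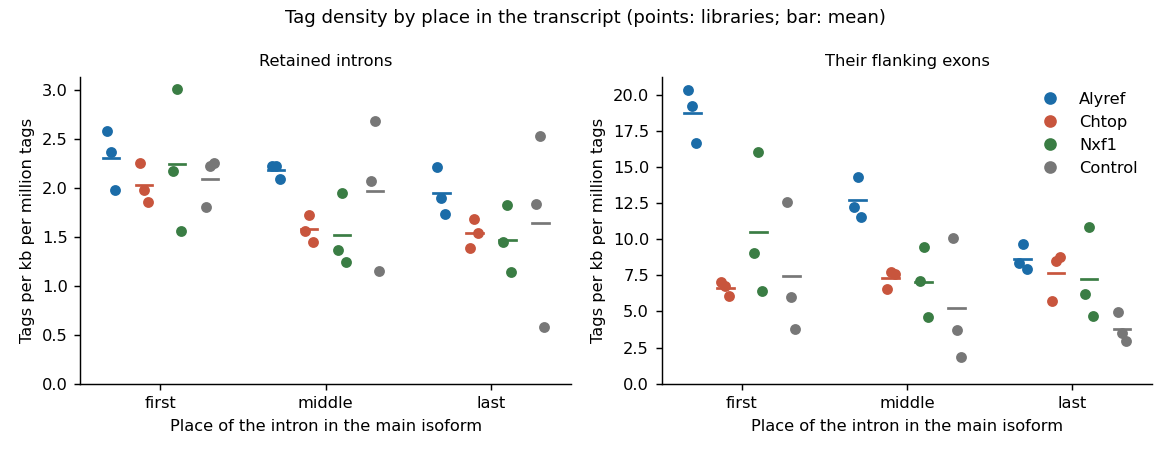
CPM per kb, the tags per kilobase scaled to a library of 1000000 tags (y axis), inside annotated retained introns (left) and in the 100 nt of exon on either side (right), by place of the intron in the main isoform (x axis), with a point for each library and a bar for the mean. Alyref exon density runs from 18.7 at first introns to 8.62 at last introns, while its density inside the introns stays between 1.95 and 2.31.

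Around the splice sites, 3540 main-isoform members of at least 200 nt were averaged, with density expressed as a percent of that in the flanking exons. The first 50 nt after the donor held 20.3% ± 4.31 for Alyref, 21.5% ± 7.32 for Chtop and 21.0% ± 3.93 for Nxf1, against 6.74%, 6.57% and 12.9% in 36056 other introns of the same genes. In the last 50 nt of the upstream exon, Alyref stood at 110% ± 5.16 and Chtop at 96.8% ± 1.33 beside members, and at 113% ± 3.63 and 92.0% ± 1.38 beside other introns. On the exon side of the donor, Alyref thus differed between members and other introns by less than the spread between libraries, and Chtop was somewhat higher beside members.

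Before the acceptor, a stretch 60 to 41 nt upstream was compared with the stretches on either side of it. This window was chosen after the profile had been seen. In members it held 37.4% ± 9.19 of the flanking density for Alyref, 44.3% ± 16.5 for Chtop and 31.6% ± 28.3 for Nxf1. The stretch 90 to 71 nt upstream held 17.2% ± 3.89, 19.1% ± 4.60 and 20.6% ± 4.59, and the stretch 40 to 21 nt upstream held 24.1% ± 11.0, 22.5% ± 3.55 and 30.5% ± 15.3. Other introns had 9.24% ± 0.856 for Alyref and 8.34% ± 1.90 for Chtop at 60 to 41 nt against 4.21% and 5.36% at 90 to 71 nt. The last 50 nt before the acceptor, taken whole, held 35.3% ± 8.33, 38.2% ± 5.82 and 39.9% ± 20.3 in members, and 17.3% ± 3.95 for Alyref and 17.0% ± 2.79 for Chtop in other introns. On the mean, the window was thus above its neighbours for Alyref and Chtop in members and in other introns alike. In other introns the stretch 40 to 21 nt upstream held 5.62% ± 1.10 for Alyref and 6.40% ± 2.16 for Chtop. The window was below the last 50 nt in other introns, while in members its Alyref and Chtop means were above them, within the spread between libraries. In members the 601 factor tags of the window came from 361 introns. Without the 10 introns with most tags there, the window stood at 30.8% ± 5.65 for Alyref, 33.4% ± 11.1 for Chtop and 28.0% ± 24.9 for Nxf1. The Control libraries gave 144% ± 197 in the window, 118% ± 51.7 at 40 to 21 nt and 67.4% ± 60.4 at 90 to 71 nt. These rest on 41, 23 and 16 tags, with 38 of the 41 in the second Control library. Control tags were thus also most numerous in the window. Whether the factors rise there beyond the background cannot be read from so few tags.

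**Figure D4:**
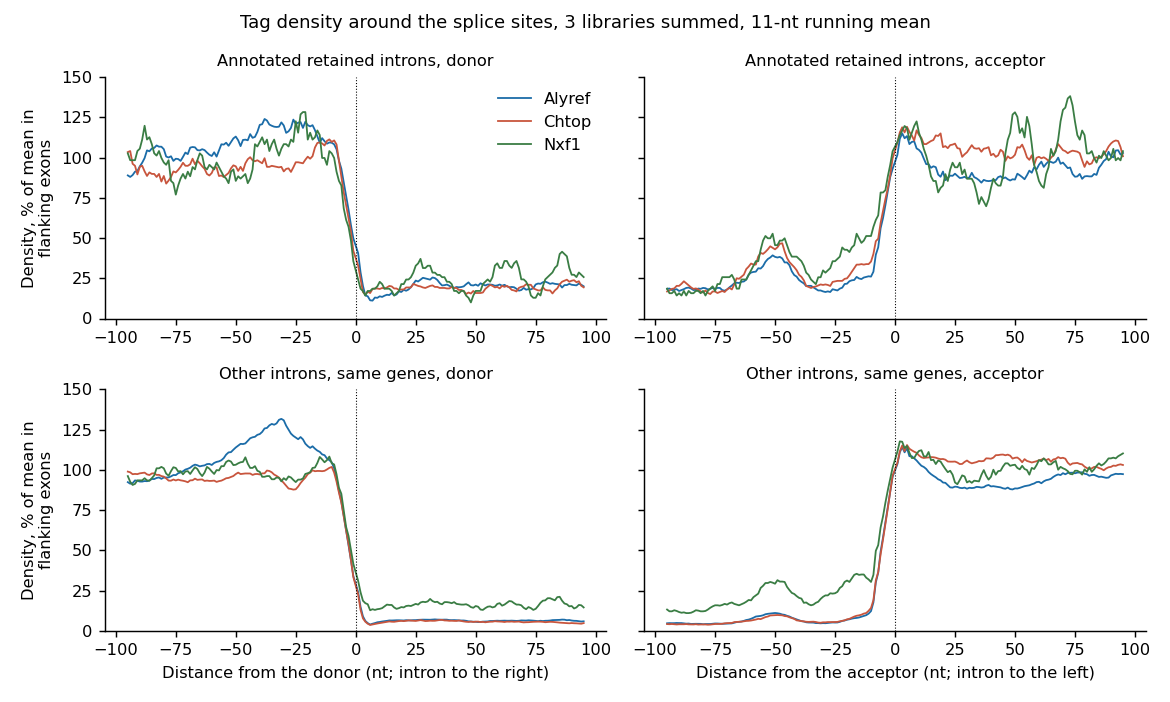
Tag density as a percent of the mean in the flanking exons (y axis) against distance in nt from the donor (left) and the acceptor (right), for 3540 annotated retained introns (top) and 36056 other introns of the same genes (bottom), as an 11-nt running mean with the 3 libraries of a factor summed. After the donor, Alyref stands at 20.3% in retained introns and at 6.74% in the others, and the density before the acceptor rises in both.

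Introns inside a main-isoform exon were divided by the region they lie in. There were 1365 in the 3′ UTR, 790 in coding sequence, 731 across the end of the coding sequence and 504 in the 5′ UTR. In the 3′ UTR their density was 4.57, 4.77 and 4.49 CPM per kb in the Alyref libraries and 5.83, 8.40 and 9.82 in the Chtop libraries, so Chtop was higher in each. In coding sequence Alyref (7.78, 8.14 and 6.74) and Chtop (7.24, 10.5 and 12.03) overlapped. Set against the other exon sequence of the same genes, the 3′ UTR members were lower by a mean log2 difference of -0.08 ± 0.02 for Alyref and -0.28 ± 0.03 for Chtop. Coding members were at -0.63 ± 0.07 in Alyref, -0.11 ± 0.13 in Chtop and -0.01 ± 0.17 in Nxf1, and 5′ UTR members at -0.76 ± 0.19 for Alyref and -0.25 ± 0.11 for Chtop.

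Single members were compared between groups with the edgeR quasi-likelihood test, in a fit over 16836 exon and intron features of all protein-coding genes with Benjamini-Hochberg adjustment at 0.05. Members that overlap were merged into stretches, and 813 of these had enough tags, of which 482 lay inside a main-isoform exon, 252 were main-isoform introns and 79 were others. Against Control, with TMM scaling, 154 of the 813 were called higher in Chtop, where 21.6% of all features were called. Of the 154, 142 lay inside a main-isoform exon. By class, 29.5% of the tested stretches inside a main-isoform exon, 2.78% of the main-isoform introns and 6.33% of the others were called, beside 40.2% of other exon features and 0.982% of other introns. Alyref gave 1 member, higher, where 0.481% of all features were called. Nxf1 gave none where 0% of features were called, and DESeq2 also called 0. An unadjusted p under 0.05 was found for 43 of the 813, near the share that this cutoff gives when nothing differs.

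The scaling moved these counts. TMM factors ran from 0.344 to 5.14 in this sparse table, and relative to scaling by the total number of tags they raised the median log2 change of all features against Control by 0.94 (Alyref), 1.39 (Chtop) and 0.66 (Nxf1). With library-size scaling, 16 members rose and 3 fell in Chtop against Control (4.23% of all features called), and the 16 were among the 154. The 3 that fell were introns of the main isoform, in NOP56, ANKLE2 and RACK1. For Alyref it called 1 member, lower, in CREBZF (0.166% of all features), and for Nxf1 it called 0 (0.0238% of all features, 47 of 813 members at an unadjusted p under 0.05).

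The members with the lowest adjusted p over Control all lay inside main-isoform exons. The 3′ UTR stretch of MARCHF6, a ubiquitin ligase of the endoplasmic reticulum, at chr5:10434320-10436906, held 8, 149 and 133 tags in the Chtop libraries, 7, 53 and 55 in Alyref, 0, 8 and 11 in Nxf1 and 0 in all 3 Control libraries. Chtop was at least 8.63-fold higher than Control, taking the floor of 3 tags over the Control group (edgeR, adjusted p = 6.87e-05, and 0.00466 with library-size scaling). The stretch of ASXL1, a chromatin regulator, at chr20:31022385-31026232 spans the end of the coding sequence and held 6, 131 and 121 tags in Chtop, 12, 60 and 53 in Alyref, 3, 1 and 1 in Nxf1 and 0 in Control. It was at least 7.67-fold higher in Chtop (edgeR, adjusted p = 1.16e-04, and 0.00555 with library-size scaling). It was also the 1 member called for Alyref, at least 2.87-fold higher (edgeR, adjusted p = 0.0439), a call that library-size scaling did not give (adjusted p = 0.192), and the call was lost when any 1 Alyref or Control library was left out. With a replicate block it was kept (edgeR, adjusted p = 0.0219), and the MARCHF6 stretch was called for Alyref too (adjusted p = 0.0292, against 0.0563 without the block).

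The 3 next lowest adjusted p-values in Chtop against Control belonged to SRRM2, RIF1 and TUG1. The stretch of SRRM2, a large scaffold protein of nuclear speckles, lies in coding sequence at chr16:2813940-2814848, with 7, 171 and 170 Chtop tags, 8, 48 and 50 Alyref tags, 2, 7 and 3 Nxf1 tags and 0, 0 and 3 Control tags. It rose by a log2 change of 4.71 ± 1.03 (SE, edgeR, adjusted p = 6.79e-04, and 3.19 ± 0.90 with adjusted p = 0.0253 by library size). RIF1, which acts in DNA repair and replication timing, held 5, 64 and 76 Chtop tags in its 3′ UTR stretch at chr2:152331734-152336611 and 0 in Control, and was at least 4.31-fold higher. TUG1, best known as a long non-coding RNA but protein-coding in this annotation, held 1, 91 and 71 Chtop tags at chr22:31365373-31367236 and 0 in Control, and was at least 4.85-fold higher. The most tags of any stretch inside an exon were in HP1BP3, a heterochromatin protein gene, with 13, 181 and 158 in Chtop, 16, 114 and 78 in Alyref, 4, 6 and 2 in Nxf1 and 2, 2 and 1 in Control.

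Between factors, Chtop and Nxf1 differed most. With TMM, 160 members were higher in Chtop and 2 lower, where 14.5% of all features were called, and 137 of the 160 lay inside a main-isoform exon. By class, 28.4% of the tested stretches inside a main-isoform exon were called, near the 26.0% of other exon features. Calls took 5.16% of the main-isoform introns and 15.2% of the other members, beside 1.02% of other introns. The count of members called was 0 when the third Nxf1 library was left out and 7 without the third Chtop library. Library-size scaling gave 112 higher and 9 lower (14.2% of features), and 114 of these calls, in the same direction, were shared with the TMM calls. The 3 lowest adjusted p-values belonged to 3′ UTR stretches. PLEKHH1 held 4, 45 and 37 Chtop tags at chr14:68054018-68055510, 2, 10 and 10 in Alyref, 0, 1 and 0 in Control and 0 in Nxf1, and was at least 8.66-fold higher in Chtop than in Nxf1 over a floor of 3 tags for the Nxf1 group (edgeR, adjusted p = 0.00152). USP36, a deubiquitinase of the nucleolus, held 2, 38 and 39 Chtop tags and 0 in Nxf1, and was at least 7.95-fold higher. ANKFY1, an endosomal protein, held 6, 51 and 52 Chtop tags against 0, 0 and 1 in Nxf1.

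The 2 members lower in Chtop than in Nxf1 were intronic. Intron 2 of RPLP1, which codes for an acidic protein of the ribosomal stalk, at chr15:69746061-69747508, held 0 tags in every Chtop library, 0, 6 and 1 in Nxf1, and 0, 12 and 6 in Alyref (edgeR, adjusted p = 0.0197, and 0.00288 with library-size scaling). The stretch of DDX3X, an RNA helicase of the X chromosome, at chrX:41200068-41200736, held 1, 0 and 0 Chtop tags, 1, 6 and 3 Nxf1 tags and 0, 6 and 7 Alyref tags (edgeR, adjusted p = 0.0293, and 0.00276 with library-size scaling). Both therefore rest on few tags, and the Control libraries held none.

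Alyref and Chtop gave no member call with TMM, where 0.00594% of all features were called, but 267 members had an unadjusted p under 0.05 and DESeq2 called 2. Library-size scaling called 12 members higher in Alyref and 55 lower, where 3.81% of features were called. All features shifted by -0.51 (log2) between these scalings, from a median of 0.23 by library size to -0.28 with TMM, so the direction of a typical feature flips with the scaling. By library size, the members lower in Alyref were stretches inside a main-isoform exon in 52 of 55 cases, and those higher were main-isoform introns in 8 of 12. Sequence outside the members split in the same direction. Of other exon features, 101 were higher in Alyref and 319 lower, and of other introns 144 were higher and 11 lower. Calls took 11.4% of the tested stretches inside a main-isoform exon and 3.97% of main-isoform introns, beside 4.95% of other exon features and 2.06% of other introns. Members lower in Alyref included the 3′ UTR stretches of ANKFY1 (log2 change -2.69 ± 0.52 SE, edgeR, adjusted p = 7.15e-04) and CD46 (-2.19 ± 0.49, edgeR, adjusted p = 0.00436). For CD46, a complement regulator, Chtop held 7, 110 and 138 tags and Alyref 1, 43 and 30. In CIRBP, which codes for a cold-inducible RNA-binding protein, a stretch inside an exon leaned the other way, with 15, 68 and 54 Alyref tags and 3, 24 and 13 Chtop tags. Alyref against Nxf1 called 0 members with TMM (0.0772% of features, 108 members at an unadjusted p under 0.05, 4 by DESeq2) and 8 by library size (2.08% of features).

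A within-gene test asked whether a member differed from the rest of its own gene, which cancels the level of the gene. It covered 12033 features and 792 members. For Alyref against Chtop it called 0 members (0% of features, 57 members at an unadjusted p under 0.05), and 3 by library size, all stretches inside a main-isoform exon and lower in Alyref, in PCDH7, MED23 and ALG13. For Alyref against Nxf1 it called 0 with TMM (0.0416% of features, 29 members at an unadjusted p under 0.05) and 0 by library size. For Chtop against Nxf1 it called 2 (1.3% of features), both lower in Chtop relative to their gene. These were the DDX3X stretch (log2 change -5.11, edgeR, adjusted p = 0.0140) and intron 5 of NKTR at chr3:42661201-42662920 (-3.61, edgeR, adjusted p = 0.0499), with 0, 6 and 2 Chtop tags, 0, 1 and 6 Nxf1 tags and 2, 7 and 7 Alyref tags. NKTR is a cyclophilin-related protein with an SR-rich domain. With a replicate block the DDX3X call was kept (edgeR, adjusted p = 0.0191) and the NKTR call was lost (adjusted p = 0.0730), while a stretch inside an exon of PCDH7 was called higher (log2 change 3.79, adjusted p = 0.0445). Library-size scaling called 11, 5 higher and 6 lower in Chtop (4.95% of features), and the 6 lower were in DDX3X, NKTR, HNRNPA2B1, OGT, SREK1 and PRPF4B.

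Intron 10 of NXF1, whose retention is textbook knowledge, was tagged by all 3 factors. It held 1, 12 and 9 Alyref tags, 0, 4 and 4 Chtop tags, 0, 13 and 10 Nxf1 tags and 0, 1 and 0 Control tags. In the deeper libraries, 2 and 3, both Nxf1 counts exceeded both Chtop counts, although Chtop libraries were deeper. The log2 change of Chtop against Nxf1 was -2.30 ± 0.89 SE with TMM (edgeR, adjusted p = 0.0604, not called) and -3.19 ± 0.70 by library size (adjusted p = 0.00116). Alyref against Nxf1 was -1.82 ± 0.80 with TMM (edgeR, adjusted p = 0.260) and -2.16 ± 0.61 by library size (adjusted p = 0.0323). Relative to the rest of the gene the log2 change was -1.25 against Nxf1 for both, and was not called (edgeR, adjusted p = 0.478 for Chtop and 0.946 for Alyref). The Nxf1 line carries an added NXF1 copy, whose part in these tags was not tested. Exon tags of NXF1 numbered 7, 75 and 52 in Alyref, 0, 35 and 18 in Chtop and 0, 25 and 18 in Nxf1. The intron's density was 67.2% of its flanking exons over the factors, on only 6 flanking tags.

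Intron 2 of CHTOP was looked at after its values had been seen. It held 1, 39 and 38 Chtop tags, 0, 11 and 12 Alyref tags, 0, 7 and 2 Nxf1 tags and 0 in Control. Against Alyref, Chtop was higher in the deeper libraries (log2 change of Alyref against Chtop -2.08 ± 0.51 SE by library size, edgeR, adjusted p = 0.0108, and -2.66 ± 0.82 with TMM, adjusted p = 0.130). Over Control it was at least 2.32-fold higher (edgeR, adjusted p = 0.00486 with TMM and 0.0559 by library size). The exon tags of CHTOP moved with it, at 5, 78 and 76 in Chtop against 4, 38 and 38 in Alyref, and the within-gene log2 change of Alyref against Chtop was -0.61 (edgeR, not called, with an unadjusted p of 0.400 with TMM). The Chtop line carries an added CHTOP copy, whose part was not tested. ALYREF has no member intron.

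The kinases CLK1 and CLK4, which phosphorylate SR proteins, and the O-GlcNAc enzymes OGT and OGA are known for introns detained in the nucleus. CLK1 intron 3 held 2, 14 and 7 Alyref tags but 1, 1 and 0 Chtop tags and 0, 1 and 0 Nxf1 tags, with 0 in Control. Alyref was higher than Chtop by 2.81 ± 0.90 (log2, SE) by library size (edgeR, adjusted p = 0.0493) and by 2.36 ± 1.02 with TMM (adjusted p = 0.264). The matching intron of its paralog, CLK4 intron 3, held 3, 3 and 6 Alyref tags, 0, 1 and 0 Chtop tags and 0, 0 and 2 Nxf1 tags, and had too few for the test. The donor sites of the paralogs share their first 6 intron bases, as the CLK4 site shows beside that of CLK1 above.
CLK4 intron 3 donor, chr5:178044436-178045556, minus strand: tcgGTATGA

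OGT intron 4 was far more heavily tagged. It held 10, 76 and 69 Alyref tags, 3, 81 and 43 Chtop tags, 2, 19 and 8 Nxf1 tags and 2, 6 and 0 Control tags. In CPM, the tags scaled to a library of 1000000, this was 119 ± 4.41 in Alyref, 105 ± 43.5 in Chtop, 150 ± 101 in Nxf1 and 138 ± 143 in Control, which overlap, and no comparison of its level was called. Its density was 89.3% of that in its flanking exons over the factors. The OGA member, intron 13, held 1 tag in all.

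DDX39B, the RNA helicase at the core of TREX, could not enter the fit, because an annotated readthrough gene covers it on the same strand. With tags in more than 1 gene kept, its intron 6 held 52, 247 and 236 Alyref tags, 24, 268 and 167 Chtop tags, 4, 33 and 14 Nxf1 tags and 4, 9 and 1 Control tags. The flanking exon windows held 32, 38, 8 and 2 tags summed over the same groups, against 535, 459, 51 and 14 in the intron. Intron 1, which holds the small nucleolar RNA gene SNORD84, had 3, 29 and 31 Alyref tags, 1, 22 and 10 Chtop tags, 0, 3 and 4 Nxf1 tags and 0, 14 and 3 Control tags. Every factor thus had more tags in intron 6 than in intron 1, also per base of intron, while Control did not.

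The 12 main-isoform members with the highest mean level over the factor libraries included OGT intron 4 and the introns named next. DDX17 intron 11 led, with 31, 181 and 152 Alyref tags, 12, 140 and 138 Chtop tags, 3, 32 and 28 Nxf1 tags and 0, 12 and 4 Control tags. In CPM this was 307 ± 67.0, 279 ± 36.9, 264 ± 106 and 122 ± 129, so the 3 factors overlapped. Chtop against Control gave 2.25 ± 0.81 with TMM (log2, SE, edgeR, adjusted p = 0.0322) and was not called by library size (adjusted p = 0.463). Its paralog DDX5 had the same intron among the members, intron 11, with 7, 74 and 51 Alyref tags, 9, 41 and 51 Chtop tags, 1, 8 and 7 Nxf1 tags and 1, 0 and 2 Control tags. Chtop against Control was 3.19 ± 1.08 for it with TMM (edgeR, adjusted p = 0.0231) and again not called by library size (adjusted p = 0.258). The microRNA genes MIR3064 and MIR5047 lie in that intron and their bases were left out.

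Densities in several of these introns passed those of their flanking exons. The introns were chosen for high levels in these same libraries, and a high ratio follows in part from that choice. With the factors summed, the percent of flanking density was 85.6% for DDX17, 176% for DDX5 and 143% for LENG8 intron 15. These rest on 34, 21 and 21 flanking tags. Over all main-isoform members the mean was 17.2% for Alyref, 22.0% for Chtop and 21.8% for Nxf1. LENG8 held 16, 103 and 73 Alyref tags, 8, 63 and 55 Chtop tags, 0, 12 and 7 Nxf1 tags and 2, 4 and 0 Control tags. ARGLU1 intron 2 reached 404%, but on 4 flanking tags. HNRNPA2B1 intron 1 was the lowest of the 12, at 6.31%, with heavily tagged exons beside it (115 factor tags).

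Some of the 12 differed between factors. SLC25A37, which codes for a mitochondrial iron importer, held 3, 71 and 73 Chtop tags in intron 2, 4, 41 and 25 in Alyref and 1, 2 and 6 in Nxf1. Chtop was higher than Nxf1 there with both scalings, by 3.00 (TMM, edgeR, adjusted p = 0.0180) and 2.17 (library size, adjusted p = 0.0182). HNRNPA2B1 went the other way, with 2, 9 and 6 Chtop tags, 0, 12 and 12 Nxf1 tags and 6, 27 and 29 Alyref tags, and a log2 change of Chtop against Nxf1 of -2.14 by library size (edgeR, adjusted p = 0.0154) and -1.21 with TMM (adjusted p = 0.368). Intron 10 of the same gene, outside the 12, was higher in Alyref than in Chtop by library size (2.30, edgeR, adjusted p = 0.0275).

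**Figure D5:**
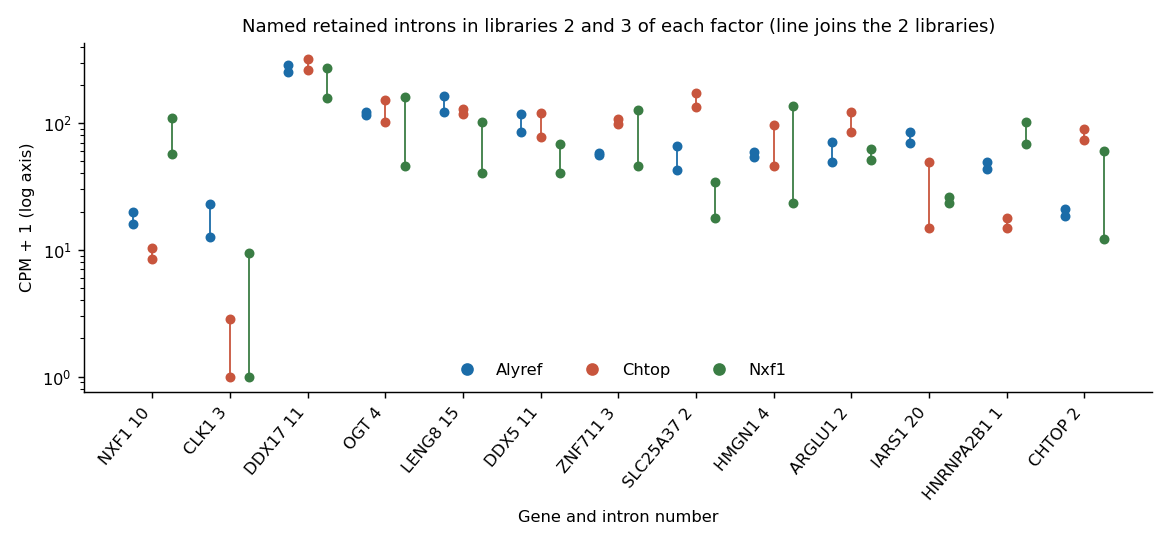
CPM plus 1 on a log axis (y axis) for named retained introns (x axis, gene and intron number) in libraries 2 and 3 of each factor, with a line joining the pair. DDX17 intron 11 is the highest for all 3 factors, CLK1 intron 3 is low in Chtop and Nxf1, and NXF1 intron 10 is highest in Nxf1.

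Other introns of the 12 were not called between factors. ZNF711 intron 3, in a zinc finger gene, held 3, 36 and 33 Alyref tags, 3, 57 and 42 Chtop tags, 1, 15 and 8 Nxf1 tags and 1, 19 and 2 Control tags. In CPM, every Chtop library was above every Alyref library in it. Control had the highest mean there, at 201 ± 184 CPM, against 89.1 ± 22.3 in Chtop, 97.8 ± 46.1 in Nxf1 and 49.5 ± 11.0 in Alyref. The Control libraries overlapped all 3 factors. HMGN1 intron 4, in a gene of a nucleosome-binding protein, held 4, 37 and 32 Alyref tags and 1, 24 and 41 Chtop tags. IARS1 intron 20, in an isoleucyl-tRNA synthetase gene, held 5, 43 and 51 Alyref tags and 3, 26 and 6 Chtop tags, and both introns overlapped between these factors in CPM. The tags of main-isoform members were spread widely beyond these introns. Of 31055 factor tags, the 10 introns with most held 8.69% and the 100 with most 26.8%, while 5658 introns had at least 1 factor tag and 655 had at least 10.

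Among gene lists of RNA-processing and ribosomal proteins, cytosolic ribosomal protein genes held 167 main-isoform members and 3.00% of the factor tags in all main-isoform members, hnRNP genes 64 and 2.61%, and genes of splice site recognition 28 and 1.50%. CLK and O-GlcNAc enzyme genes held 15 members and 1.34%, SR protein genes 16 and 0.853%, TREX and export genes 24 and 0.744%, and exon junction complex and NMD genes 21 and 0.0837%. Few members of any list reached the test, from 2 in the exon junction list to 30 in the hnRNP list.

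With TMM, Chtop was called higher than Control (21.6% of all features called) in 3 of the 17 tested members of the splice site list, 2 of 5 in the TREX list, 1 of 9 in the SR list and 1 of 30 in the hnRNP list, none was lower, and no member was called of the 3 in the CLK list, the 2 in the exon junction list or the 13 ribosomal ones. For Chtop against Nxf1 (14.5% of all features) it called 4 in the splice site list, 2 in the hnRNP list and 1 in the TREX list higher, and 1 ribosomal member lower. By library size, Alyref against Chtop (3.81% of all features) gave 3 ribosomal, 2 hnRNP, 1 CLK and 1 splice site member higher in Alyref, and 1 TREX and 1 splice site member lower. Against their flanking exons, the members of ribosomal protein genes stood at a log2 ratio of -3.28 ± 0.25 for Alyref and -2.83 ± 0.24 for Chtop, and those of SR genes at -1.46 ± 0.36 for Alyref, beside -2.54 and -2.18 over all main-isoform members.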

How the data were processed

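The iCLIP libraries were processed by the authors and deposited as counts, the number of deduplicated tags at each crosslinked base and strand, with the lane runs of a library merged. Per the methods and labels, phiX reads were removed with bowtie 1.1.2, random barcodes were handled with UMI-tools 0.5.3, reads were trimmed and demultiplexed with Reaper, and unique hits of STAR 2.4.2a on hg19 with Ensembl 75 junctions were kept. Reads that map to several places were thus lost, which can lower the tags of introns with repeats. The labels put 32 runs into 12 libraries, 3 per group. Nothing says that libraries came from separate cultures, so p-values measure the spread between libraries, which may be technical. The labels also tie the replicate number to the sequencing lanes. The second library of every group was run on HiSeq lanes of its own, and the other libraries shared HiSeq lanes. The MiSeq run was shared by the first and the second library of every group. Each set of lanes held every group, and same-numbered libraries of different groups correlated at -0.39 to 0.36 in their deviations from the group means, with 8 of 18 correlations over 0.1. The fit with the replicate number as a block is given where it changed a call. No sample column went unused (0).

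The members, gene lists and tests were chosen with earlier results of these data known. Members were found in GENCODE 44 on GRCh37, and the canonical transcript was taken as the main isoform. Overlapping members were merged into disjoint stretches for the fit, beside the remaining exon sequence and introns of each gene. Features with at least 20 tags in all and tags in at least 3 libraries entered the edgeR 4.0.16 quasi-likelihood test (R 4.3.3, limma 3.58.1), two-sided, with all tags as the library size, TMM factors and the 12 libraries in 1 fit. The within-gene test was diffSpliceDGE. Alternatives were library-size scaling, TMMwsp, DESeq2 1.42.0, other filters, a replicate block and leaving out libraries. Ratios were computed in Python 3.11.15 with numpy 2.4.6, pandas 2.3.3 and pysam 0.24.0, and a ratio needed at least 10 tags (5 for a gene list). Figures used matplotlib 3.10.9.

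Named members were those of NXF1, DDX39B, CLK1, CLK4, OGT and OGA, the 12 main-isoform members with the highest mean CPM in factor libraries, and, of the members called, the 5 with the lowest adjusted p in each direction, of which the text gives a part. CHTOP intron 2 and members called only with library-size scaling were added after their values were seen. On simulated data with 200 of 17009 features changed 4-fold in Alyref, the test recovered 38 against Control, 45 against Chtop and 18 against Nxf1 with TMM, and 27, 137 and 98 with library-size scaling. The changed features were drawn only from those with many tags, well above the minimum of the test. All groups otherwise shared the same simulated profile, so these counts do not show what is recovered among sparse members. Some of these members and 1 gene list are not reported here.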

Additional observations from a re-analysis of the deposited data

How the results depend on the processing

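Members called were few or many depending on the fit. The filters also changed the number tested, to 29 members with filterByExpr and 1745 with a minimum of 10 tags, against 813. For Chtop against Control, filterByExpr called 616 of 1546 features and the minimum of 10 tags 1083 of 28185, against 3643 of 16836. For Chtop against Nxf1 these were 536, 31 and 2448. Counts under these 2 filters therefore cannot be set directly beside the others. Against Control, Alyref gave 17 with DESeq2, 0 with a minimum of 10 tags, 2 with a replicate block and 7 with TMMwsp, and Chtop gave 82 with DESeq2, 19 by library size, 12 with filterByExpr, 38 with a minimum of 10 tags and 98 with TMMwsp, against 154. Nxf1 against Control stayed at 0 under every alternative run. Alyref against Chtop gave 2 with DESeq2, 67 by library size, 12 with filterByExpr and 35 with TMMwsp, and Alyref against Nxf1 4, 8, 2 and 4, against 0 in both. Chtop against Nxf1 gave 41 with DESeq2, 8 with filterByExpr, 1 with a minimum of 10 tags and 95 with TMMwsp, against 162. Within genes, library size gave 3 for Alyref against Chtop, and Chtop against Nxf1 gave 1 with a minimum of 10 tags, 8 with TMMwsp and 11 by library size, against 2. TMMwsp, and library size within genes, were chosen after seeing the data. The cause of these moves was not tested.

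Leaving out 1 library gave 0 to 6 calls for Alyref against Control, 11 (without Control 3) to 242 (without Chtop 1) for Chtop against Control, 0 to 109 (without Chtop 1; 19 without Nxf1 1) for Alyref against Chtop, 0 to 4 for Alyref against Nxf1, and 0 (without Nxf1 3) to 244 (without Chtop 1) for Chtop against Nxf1. Within genes it gave 0 for the comparisons with Alyref and 0 to 7 for Chtop against Nxf1. Chtop against Control also moved by over 1.5 times without Alyref 1 (65), Alyref 2 (21), Alyref 3 (21), Chtop 2 (33), Chtop 3 (18), Control 1 (49) or Control 2 (37). Chtop against Nxf1 did so without Alyref 1 (77), Alyref 2 (9), Alyref 3 (10), Chtop 2 (36), Chtop 3 (7), Nxf1 1 (106), Nxf1 2 (66) or Control 3 (73).

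The main-isoform shares and the ratios held better than the calls, but the share of all members depended on which members were kept. With tags in more than 1 gene kept, all members took 3.39% of Alyref and 3.74% of Chtop tags, main-isoform members 1.66% of Alyref, 1.32% of Chtop and 1.25% of Nxf1 tags, and the log2 ratio to the flanking exons was -2.40 for Alyref and -1.93 for Chtop. Keeping members held by a retained_intron transcript only, all members took 1.75%, 1.49%, 1.32% and 1.39% (Alyref, Chtop, Nxf1 and Control). The Alyref mean was then above the Chtop mean, the reverse of the 2.88% and 3.17% without this restriction. Main-isoform members took 1.11% of Alyref and 0.793% of Chtop tags. Without the 10 genes with most tags, chosen after seeing the data, all members took 2.74% of Alyref tags and main-isoform members 1.24% of Alyref and 0.902% of Chtop tags. Main-isoform members stayed below their flanking exons and above other introns in all 4 groups under every alternative.

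The replicate block gave 142 calls for Chtop against Control, of which 139 were shared with the fit without it, and 155 for Chtop against Nxf1, of which 149 were shared. Within genes it called 2 for Chtop against Nxf1, of which 1 was shared. Depth limits single members most, since only 813 stretches could be tested for 26842 members, and the first Nxf1 and Control libraries held 8134 and 7017 tags.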
